A study of Zea mays with 48 samples.

Results

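The onset of the transcript response was read by setting maize plants that had lain horizontal for 15 min against plants that had lain horizontal for 5 min, so that every array in the comparison came from a reoriented plant. It used 8 of the 48 arrays of the series, all of total RNA. The 4 arrays of 15 min held the upper and the lower side of the pulvinus in repetition 1 and in repetition 2, and the 4 arrays of 5 min held the same sides and repetitions. All plants were of the inbred line B73, about 6 weeks old, grown in a greenhouse with 2 plants to a pot, and turned by 90 degrees. The labels give the repetition number, and the series design states 2 growing seasons as its 2 biological repetitions. Each time point of a repetition pooled 6 pulvini of 6 plants, the second pulvinus above the soil line, and both sides were cut from the same plants. The 8 arrays therefore came from 4 plant pools, 2 for each time. Arrays of 2, 30 and 60 min, of vertical plants and of polysomal RNA from the same powders were used to describe what the comparison found.

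A pulvinus is a disc of stem tissue at the base of a grass leaf sheath that can resume growth in a mature stem. When a stem lies horizontal, starch-filled amyloplasts settle in its gravity-sensing cells, and signals that include calcium, calmodulin, inositol phosphates, reactive oxygen and auxin precede faster elongation of the lower side. Bending becomes visible hours after the stimulus, so the first minutes cover perception and signalling rather than growth. Calcium-dependent protein kinases and calmodulin read calcium transients, mitogen-activated protein kinases pass signals on by phosphorylation, and factors that bind dehydration-responsive elements act on stress genes such as dehydrins. Cellulose synthases and the enzymes that make pectin precursors build the wall that elongating cells need.

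The deposited signals of the 8 arrays had medians between 186.3 and 198.7 and 2% trimmed means between 497 and 498.5, and 17.7% to 19.4% of probe sets lay under 16. The sides of one plant pool correlated across probe sets at r = 0.984 to 0.987, arrays of one repetition at different times at 0.95 to 0.966, and arrays of one time in different repetitions at 0.902 to 0.938. Repetition thus separated these arrays more than 15 min against 5 min did, and it was kept in the model. Changes are log2 differences, 15 minus 5 min, of log2(signal + 16), from limma with repetition as a covariate and the plant pool as a random block. The offset understates the change of dim probe sets. A probe set was called when its Benjamini-Hochberg adjusted p over the 10527 probe sets tested was under 0.05. In bulk tissue, fewer cells of a type and less RNA per cell cannot be told apart, and precision is limited by how few arrays there are.

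Most of the probe sets called between 15 and 5 min were higher at 15 min. Of 10527 probe sets, 218 were called (2.07%), 187 of them higher at 15 min (1.78%), here called risers, and 31 lower (0.294%), here called fallers. Those that rose did so by a median of 1.3 log2 units (0.54 to 4.11), and those that fell changed by a median of -0.92 (-0.43 to -1.42). Among the risen ones 130 exceeded 1, 31 exceeded 2 and 8 exceeded 3, whereas 9 of the 31 fallen ones lay under -1. The median over all probe sets tested was -0.04. At an unadjusted p under 0.05 the directions were near balance, with 590 probe sets higher (5.6%) and 552 lower (5.24%), together 10.8% of those tested. The sign was the same in both repetitions for all 218 called probe sets, which the choice on these same arrays, with repetition in the model, largely fixes, as it does the separation of the groups. The 4 arrays of 15 min lay wholly above the 4 of 5 min for 182 of the 187 and wholly below for 26 of the 31, in a comparison in which 5.18% of all probe sets tested lay wholly above and 5.08% wholly below. An adjusted p of 0.0484 for cesa6 and 0.049 for Zm.9969.1.A1_at stood just inside the threshold, and 0.05 for Zm.19021.1.A1_at and 0.0536 for Zm.690.1.S1_at just outside it. With repetition left out of the model 30 were called, all higher. Without both arrays of the 15 min pool of repetition 2 the count was 11, without its upper side alone 112 and without its lower side alone 145, and it was 75 without the 5 min pool of repetition 1 and 114 without that of repetition 2.

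The annotation used here names a single gene for 920 of the probe sets tested, of 773 genes, and 1.85% of these were called, against 2.09% of the 9607 others. The calls held 17 probe sets with 1 gene, 15 higher and 2 lower, and 201 without a listed gene. Roles could therefore be given to a small share of the response. Signals are given below on the linear scale of the deposited table, with 15 min first, each time as the lower and upper side of repetition 1 and then the lower and upper side of repetition 2.

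The largest change among probe sets with a listed gene was that of a dehydrin gene. This gene, dhn2 (LOC542251), encodes one of a family of hydrophilic proteins that accumulate in water-stressed cells. It had signals of 3800.5, 3483.6, 1960.3 and 2133.5 at 15 min, against 620.4, 803.7, 784.3 and 831.8 at 5 min, on probe set Zm.4870.2.S1_a_at. Every 15 min array was above every 5 min array, and repetition 1 stood higher than repetition 2 at 15 min but not at 5 min. The change was 1.83 (SE 0.35, limma adjusted p = 0.00967, 4 arrays of 15 min and 4 of 5 min). The other probe sets of dhn2 gave 1.95 (SE 0.29, adjusted p = 0.00166) and 2.49 (SE 0.48, adjusted p = 0.00922). With repetition left out of the model Zm.4870.2.S1_a_at lost its call (limma adjusted p = 0.0751), as it did on means of plant pools (0.112). Zm.4870.1.A1_a_at lost it as well (0.074 and 0.11), and Zm.4870.1.A1_x_at kept it (0.0328 and 0.0331). The gene did not start low: its signals ranged from 1042.0 to 1817.3 in vertical plants and from 1694.5 to 3705.0 after 2 min. They ranged from 1832.6 to 4080.6 after 30 min and from 2249.7 to 3670.7 after 60 min. The 4 arrays of 5 min were thus the lowest of the 24. Of the 5 probe sets tested in the list of abscisic acid and dehydration genes, the 3 of dhn2 rose and none fell, and the list's median was 1.83. The list's other members tested were a second dehydrin gene, dhn1, at -0.66 (SE 0.88) and EMB5, a late embryogenesis gene, at -0.46 (SE 0.45), both with opposite signs in the repetitions.

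The gene dbf2 (LOC541957), which encodes a factor that binds the dehydration-responsive element, was dim at 5 min and brighter at 15 min. Its signals were 249.0, 162.9, 197.8 and 282.2 at 15 min, against 72.6, 68.4, 30.5 and 49.1 at 5 min. The groups did not overlap, and the 5 min values of repetition 2 were lowest. The change was 1.77 (SE 0.37, limma adjusted p = 0.0181), 1.33 in repetition 1 and 2.20 in repetition 2. It did not pass with repetition left out of the model (adjusted p = 0.414). The call was lost without the lower 15 min array of repetition 1 or the lower 5 min array of repetition 2, with an adjusted p of up to 0.0597. Of 9 probe sets tested in the list of stress-related transcription factors, dbf2 alone passed, against 2.07% of all probe sets tested. The list's median was 0.18. The related gene dbf1 had 1896.4, 1829.1, 1838.0 and 1593.1 at 15 min, against 1097.9, 1107.1, 1269.5 and 1403.4 at 5 min. Its groups did not overlap either, but its change of 0.55 (SE 0.17) did not pass (adjusted p = 0.14).

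Among calcium sensors, the kinase gene CDPK1 (LOC542224) and the calmodulin gene CaM1 (LOC542420) rose. CDPK1 had signals of 1253.2, 1654.8, 1859.5 and 1872.4 at 15 min, against 415.6, 425.3, 339.8 and 496.2 at 5 min. Even the lowest 15 min array was more than double the highest 5 min array, and the change was 1.94 (SE 0.27, limma adjusted p = 0.00115). Outside the comparison CDPK1 ranged from 346.5 to 477.5 in vertical plants, from 308.0 to 756.9 after 2 min, from 754.9 to 1149.5 after 30 min and from 437.5 to 879.6 after 60 min. It was brightest at 15 min, with no overlap with any other time. CaM1 was bright throughout, with 3891.3, 3816.7, 5046.9 and 4911.2 at 15 min, against 2241.7, 2367.0, 3201.7 and 3506.7 at 5 min. Repetition 2 was higher at both times, and the groups did not overlap. The change was 0.65 (SE 0.15, limma adjusted p = 0.0262). This probe set can share transcripts of near-identical calmodulin genes, so the gene behind it is uncertain, and its call was lost without either 5 min array of repetition 1 or either 15 min array of repetition 2 (adjusted p up to 0.0809).

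Of the 10 probe sets tested for calcium sensing, 2 rose and none fell, with a median of 0.14. Over all probe sets tested 1.78% rose and 0.294% fell. The endoplasmic reticulum calcium binder crt2, a calreticulin gene, stood at 0.52 (SE 0.18) and 0.40 (SE 0.16) on its 2 probe sets without passing. A different kinase locus also listed as cdpk1 stood at -0.20 (SE 0.12) and CDPK2 at 0.14 (SE 0.12). In the list of small GTPases and protein kinases, 1 of 16 probe sets rose, none fell and the median was -0.05. The riser was MPK4, a mitogen-activated protein kinase gene, with 734.7, 968.9, 874.8 and 1168.2 at 15 min, against 429.6, 528.7, 410.5 and 489.2 at 5 min. The upper side was brighter than the lower within each pool, and no 15 min array reached down to the 5 min values. Its change was 0.97 (SE 0.17, limma adjusted p = 0.00449). The kinase genes MPK5 and mpk6 stood between -0.05 and 0.10. The gene ypt2, of a small GTPase of vesicle traffic, was higher by 0.67 (SE 0.18) and 0.76 (SE 0.22) with no overlap of the arrays and did not pass (adjusted p = 0.0718 and 0.111).

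**Figure D1:**
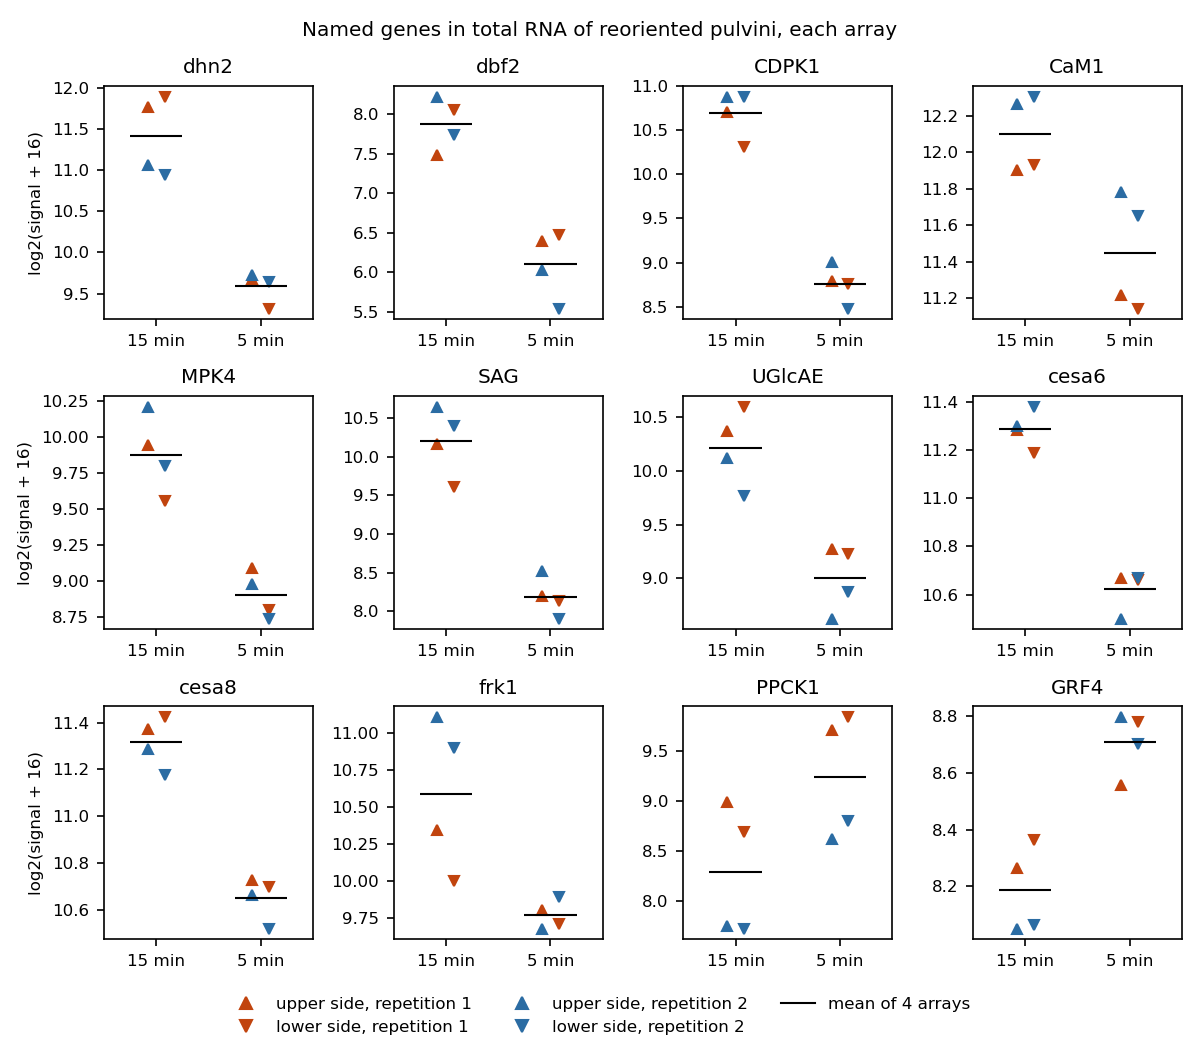
Log2(signal + 16) of 12 named genes in each total RNA array of 15 min (left) and 5 min (right), with the mean of 4 arrays as a line, the side as the symbol and the repetition as the colour. The axes differ between panels and do not start at 0. The 15 min arrays lie above the 5 min arrays for the first 10 genes, and below them within each repetition for PPCK1 and GRF4.

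The SAG transcript (LOC542202), which the annotation lists by that symbol only, changed by 2.02 (SE 0.31, limma adjusted p = 0.00198). Its signals were 767.5, 1126.1, 1333.7 and 1587.5 at 15 min, against 265.2, 276.8, 223.3 and 350.2 at 5 min. The groups stood apart by more than the range of the 5 min arrays. Outside the comparison SAG ranged from 122.8 to 319.0 in vertical plants, from 185.0 to 342.9 after 2 min, from 526.6 to 770.4 after 30 min and from 335.0 to 811.4 after 60 min. Its values in vertical plants, after 2 min and after 5 min overlapped, and 3 of the 4 arrays of 15 min were above every array of another time.

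UGlcAE (LOC732831) encodes UDP-glucuronate 4-epimerase, which makes the galacturonate precursor of pectin, and was the wall-related gene with the largest change among named genes. Probe set Zm.5311.1.A1_at had 1528.6, 1303.8, 855.4 and 1091.5 at 15 min, against 584.6, 604.6, 454.0 and 379.0 at 5 min. Repetition 1 was brighter at both times, and the groups did not overlap. The change was 1.21 (SE 0.25, limma adjusted p = 0.0152). The second probe set, Zm.12322.1.A1_at, had 990.1, 1052.0, 695.8 and 695.2 at 15 min, against 476.1, 385.6, 154.2 and 117.2 at 5 min, a change of 1.73 (SE 0.29, adjusted p = 0.00332). The change was 1.23 in repetition 1 and 1.19 in repetition 2 on Zm.5311.1.A1_at, and 1.22 and 2.24 on Zm.12322.1.A1_at. With repetition left out of the model Zm.5311.1.A1_at (limma adjusted p = 0.881) and Zm.12322.1.A1_at both lost their calls. On means of plant pools the adjusted p was 0.107 for Zm.5311.1.A1_at and 0.0499 for Zm.12322.1.A1_at.

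Of 30 probe sets tested in the cell wall list, 2 rose and none fell, 21 were higher and 9 lower, and the median was 0.23. Over all 10527 tested, 1.78% rose and 0.294% fell, and 4401 were higher and 6126 lower. The 2 risers of the list were cellulose synthase genes of the primary wall type. The signals of cesa8 (LOC541806) were 2733.9, 2633.9, 2299.3 and 2482.7 at 15 min, against 1645.4, 1677.7, 1451.3 and 1604.4 at 5 min, a change of 0.66 (SE 0.16, limma adjusted p = 0.0336). For cesa6 (LOC541804) they were 2314.4, 2472.6, 2647.3 and 2501.1 at 15 min, against 1605.1, 1611.7, 1614.5 and 1432.5 at 5 min, a change of 0.66 (SE 0.16, adjusted p = 0.0484). Both genes were separated without overlap, with a small spread within each time. In vertical plants cesa8 ranged from 1607.2 to 2131.2 and cesa6 from 1665.8 to 1977.2, below every 15 min array. For cesa6 the vertical arrays lay above every 5 min array, and for cesa8 they overlapped the 5 min arrays. The calls did not hold without single arrays: cesa8 lost its call without any 1 of 6 of the 8 arrays (adjusted p up to 0.112) and cesa6 without any 1 of 7 (up to 0.143). The sister genes CesA-1, CesA-5 and CesA-9 stood at 0.30 (SE 0.16), 0.38 (SE 0.19) and 0.24 (SE 0.11) and cesa10 at -0.46 (SE 0.25), none past the threshold. Of 14 probe sets of expansins, the proteins that loosen walls, 8 were higher and 6 lower, from -0.63 to 1.56, and none was called. The highest was expA4 on its probe set Zm.13728.2.S1_at, which had 326.2, 181.9, 219.6 and 241.6 at 15 min, against 93.0, 66.6, 70.9 and 53.8 at 5 min, a change of 1.56 (SE 0.42) that did not pass (adjusted p = 0.0818). EXPA5, with 3151.4, 1986.2, 2747.1 and 2001.9 at 15 min, against 1074.4, 1648.9, 947.0 and 628.4 at 5 min, changed by 1.24 (SE 0.41, adjusted p = 0.191). These 2 probe sets did not overlap between the times and were picked after their values were seen. In vertical plants EXPA5 ranged from 685.8 to 2171.2, which overlapped both times. Another probe set of expA4, Zm.13728.1.S1_at, overlapped, with 1517.7, 1162.7, 703.6 and 435.6 at 15 min, against 1122.1, 941.5, 502.1 and 288.1 at 5 min, and stood at 0.44 (SE 0.28). The gene expa1 stood at -0.01 (SE 0.12), expB3 at -0.40 (SE 0.37) and expB7 at -0.63 (SE 0.96).

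Carbon metabolism gave 1 riser and 1 faller with a listed gene. The fructokinase gene frk1 (LOC542107), whose product phosphorylates fructose released from sucrose and which the gene list does not hold, had 1010.7, 1282.4, 1888.4 and 2194.1 at 15 min, against 822.7, 878.9, 937.7 and 804.2 at 5 min. The 5 min arrays were tight and the 15 min arrays were spread, with repetition 2 higher. In vertical plants frk1 ranged from 788.4 to 1342.3, which overlapped both times. The change was 0.81 (SE 0.20, limma adjusted p = 0.0415), 0.41 in repetition 1 and 1.21 in repetition 2, and the call was lost without any 1 of 6 of the 8 arrays (adjusted p up to 0.125). PPCK1 (LOC606483) encodes the kinase that phosphorylates phosphoenolpyruvate carboxylase, and it fell. Its signals were 398.8, 494.5, 195.6 and 199.3 at 15 min, against 905.9, 824.4, 429.8 and 378.3 at 5 min. The groups overlapped, with repetition 1 brighter at both times, and within each repetition both 15 min arrays were lower. The change was -0.96 (SE 0.20, limma adjusted p = 0.0191), -0.94 in repetition 1 and -0.97 in repetition 2. It was lost without the lower 15 min array of repetition 1 or the upper one of repetition 2 (adjusted p up to 0.0691), and PPCK1 had an adjusted p of 1 with repetition left out of the model. Of the 22 probe sets tested for sucrose, starch and glycolysis, PPCK1 alone fell, none rose, and the median was 0.05. Over all probe sets tested 0.294% fell and 1.78% rose. The soluble invertase gene ivr2 stood at 1.28 (SE 0.65) and the cell wall invertase gene incw1 at 0.40 (SE 0.33), both short of the threshold.

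The other named faller was GRF4 (LOC100101537), a growth-regulating factor gene, whose family of transcription factors is active in growing tissue. It had 313.3, 291.3, 251.9 and 249.2 at 15 min, against 423.2, 361.0, 399.8 and 428.9 at 5 min. The groups did not overlap, and the change was -0.52 (SE 0.13, limma adjusted p = 0.0448). It was lost without any 1 of 6 of the 8 arrays (adjusted p up to 0.139). The call was also lost with quantile normalization, above the 60th percentile and with repetition left out of the model (limma adjusted p = 0.513). It did not hold on means of plant pools (0.13) or with the 8 arrays fitted alone (0.0571). The remaining named risers have no role in the annotation used. LOC732777 had 831.6, 789.8, 1168.9 and 1232.8 at 15 min, against 541.6, 420.1, 355.3 and 481.2 at 5 min, with no overlap and a change of 1.12 (SE 0.24, adjusted p = 0.0191). Its call was lost without either 15 min array of repetition 2 (adjusted p up to 0.0705). LOC542227, which RefSeq classes as a transcribed pseudogene and whose probe set can match several transcripts, had 793.9, 950.3, 834.7 and 1149.7 at 15 min, against 353.1, 374.1, 286.0 and 309.7 at 5 min. The change was 1.44 (SE 0.27, limma adjusted p = 0.00731), with no overlap.

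The largest changes of all belonged to probe sets without a listed gene. Zm.1524.1.A1_at had 1481.9, 1743.7, 2472.0 and 2511.9 at 15 min, against 31.0, 82.4, 129.8 and 257.4 at 5 min. Its change was 4.11 (SE 0.67, limma adjusted p = 0.00295), and in proportion its 4 arrays of 5 min were more spread than those of 15 min. At 30 min it still had 744.7 to 1494.1. Zm.16474.1.A1_at had 1802.2, 1739.1, 1644.5 and 2288.4 at 15 min, against 140.8, 124.2, 133.2 and 222.0 at 5 min, a change of 3.48 (SE 0.48, adjusted p = 0.00115). At 30 min it had 54.5 to 70.4, so that all 4 arrays of 30 min lay below all 4 of 5 min. Its highest value outside 15 min was 350.0, after 2 min. Zm.1527.2.A1_a_at had 3125.5, 3061.6, 3604.8 and 3841.1 at 15 min, against 271.5, 433.3, 436.0 and 382.0 at 5 min, a change of 3.13 (SE 0.42, adjusted p = 0.00113). It had 133.9 to 402.0 at 30 min, again near or below the 5 min values.

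Zm.6299.1.A1_at had 671.5, 551.7, 1164.4 and 962.9 at 15 min, against 58.0, 54.5, 62.6 and 84.2 at 5 min, a change of 3.36 (SE 0.38, limma adjusted p = 0.000318). Zm.5108.1.A1_at had 1738.9, 1396.8, 1277.9 and 1795.2 at 15 min, against 153.9, 227.3, 134.6 and 155.4 at 5 min, a change of 3.10 (SE 0.34, adjusted p = 0.000318). For these, as for the other probe sets of the group, no 15 min array came near the 5 min range. They kept intermediate levels at 30 min, with 261.1 to 553.1 for Zm.6299.1.A1_at and 319.0 to 824.1 for Zm.5108.1.A1_at. These 5 risers, the largest without a listed gene, kept their calls without any single array.

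Among fallers without a listed gene, Zm.15854.1.S1_at had 380.9, 501.1, 246.6 and 226.2 at 15 min, against 923.0, 790.5, 843.7 and 1010.1 at 5 min, a change of -1.42 (SE 0.22, limma adjusted p = 0.00237). ZmAffx.1171.1.S1_at had 211.1, 320.7, 281.9 and 215.2 at 15 min, against 932.8, 692.5, 670.9 and 548.9 at 5 min, a change of -1.41 (SE 0.24, adjusted p = 0.00443). In both, the 15 min arrays lay wholly below the 5 min arrays. Zm.11739.1.A1_at changed by -1.41 (SE 0.30, adjusted p = 0.0181), Zm.13273.1.A1_a_at by -1.13 (SE 0.19, adjusted p = 0.00347) and Zm.18481.1.A1_at by -1.13 (SE 0.18, adjusted p = 0.00285). None of these 3 overlapped between the times, and Zm.11739.1.A1_at lost its call without the upper 15 min array of repetition 2 (adjusted p = 0.0613).

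Several gene families had a lower median at 15 min without a call in limma's adjusted test. Aquaporins are water channels of the plasma membrane and tonoplast. Of 26 aquaporin probe sets, of 22 genes, 23 were lower and none was called. At an unadjusted p under 0.05, 9 of the 26 were lower, against 5.24% of all probe sets tested. Their median was -0.38, against -0.04 for all probe sets tested, of which 58.0% were lower. PIP1-3 on probe set Zm.16315.3.S1_a_at had 1702.9, 1603.2, 2536.0 and 2579.4 at 15 min, against 3614.8, 3100.0, 3000.2 and 3284.9 at 5 min, a change of -0.65 (SE 0.20, adjusted p = 0.129). Its groups did not overlap. NIP2-2 was lowest, at -1.45 (SE 0.49, adjusted p = 0.199), and tip2 went the other way, at 0.92 (SE 0.46, adjusted p = 0.485). In repetition 1, 24 of the 26 were lower, against 53.6% of all probe sets tested. In repetition 2, 16 of the 26 were lower, against 59.4% of all.

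Glutathione S-transferases are enzymes that conjugate glutathione to oxidised or foreign compounds. Of 19 probe sets, of 16 genes, 16 were lower, against 58% of all probe sets tested. None was called, and 5 were lower at an unadjusted p under 0.05, against 5.24% of all. The median was -0.36. In repetition 1, 18 of the 19 were lower, against 53.6% of all, and in repetition 2, 12 were, against 59.4%. The leading members, picked after their values were seen, were the 4 probe sets of gst31, at -0.53 to -1.08, and gst6 at -1.02 (SE 0.31). For gst6 the signals were 298.6, 420.0, 359.3 and 385.3 at 15 min, against 442.4, 375.8, 1327.0 and 1428.3 at 5 min. The difference lay in repetition 2, in which both 5 min arrays were high.

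Green tissue markers stand for photosynthetic cells in the sampled organ. All 14 probe sets tested were lower at 15 min, against 58% of all probe sets tested, with a median of -0.44. None was called by limma, and 1 was lower at an unadjusted p under 0.05, against 5.24% of all. The summed signal of all 18 listed probe sets ranged from 12187 to 26908 at 15 min, against 21493 to 30978 at 5 min. In repetition 1 the lower and upper side had 12187 and 14813 at 15 min, against 30134 and 30978 at 5 min. In repetition 2 they had 25708 and 26908, against 24714 and 21493. In repetition 1 all 14 were lower, against 53.6% of all probe sets tested, and in repetition 2 only 2 were, against 59.4%. The sign was thus opposite between the repetitions for 12 of the 14. None of the 14 was at 0 on any of the 8 arrays. The part of green tissue in the lower values of aquaporins, glutathione S-transferases and called fallers was not tested. Of 13 seed storage probe sets only 1 passed the filter on brightness, and the list's summed signal was 682 to 1037 at 15 min, against 529 to 1290 at 5 min.

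**Figure D2:**
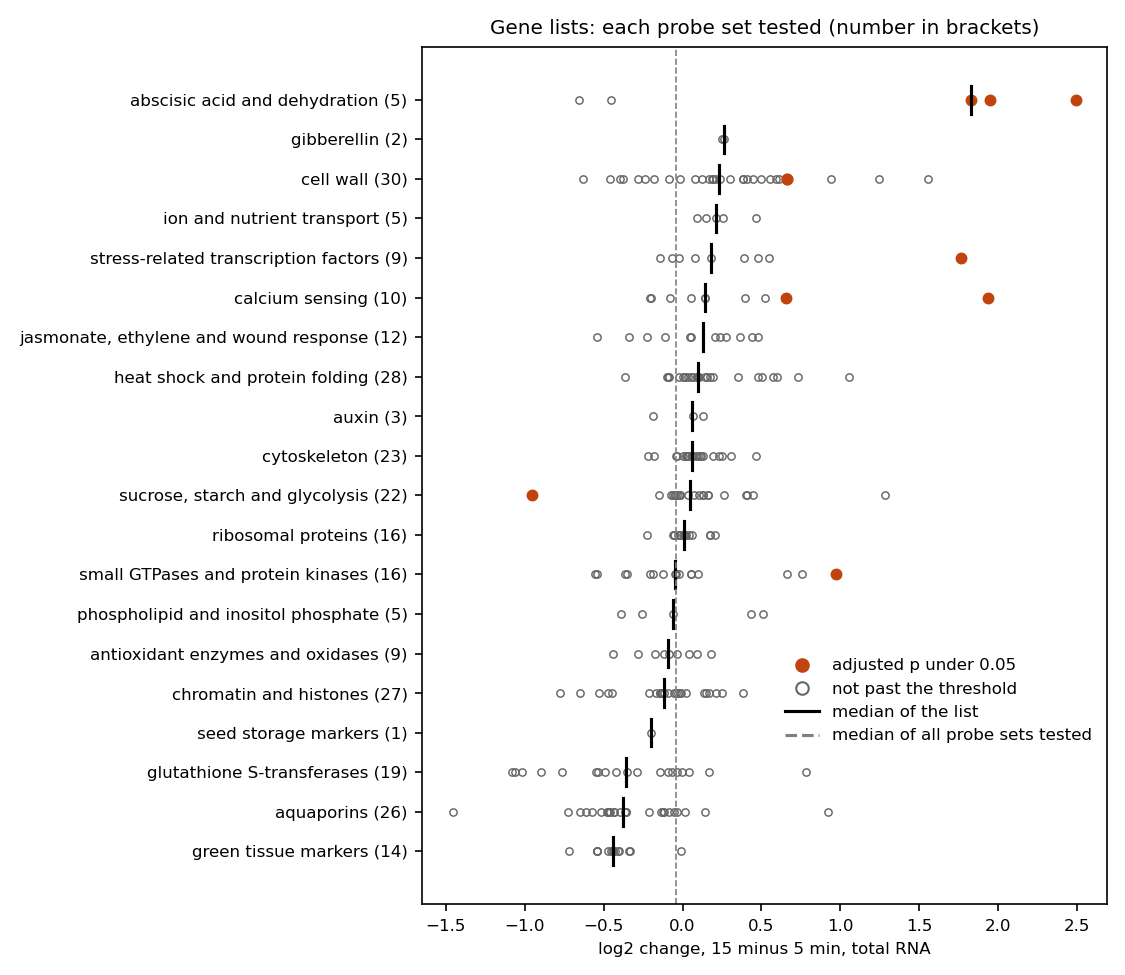
Log2 change, 15 minus 5 min in total RNA, of each probe set tested in 20 gene lists, with probe sets past an adjusted p of 0.05 filled and the list's median as a bar. The number in brackets counts the probe sets tested. The 10 filled points lie in 6 lists, and green tissue markers, aquaporins and glutathione S-transferases have the lowest medians, at -0.44, -0.38 and -0.36.

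The remaining lists had no call in limma's adjusted test. Over all probe sets tested, 10.8% had an unadjusted p under 0.05. The lists' probe sets at an unadjusted p under 0.05 were 1 of 9 for antioxidant enzymes and oxidases, 3 of 28 for heat shock and protein folding, 4 of 12 for jasmonate, ethylene and wound response, 2 of 5 for phospholipid and inositol phosphate genes, 3 of 27 for chromatin, 1 of 23 for the cytoskeleton and none for auxin, gibberellin, ion transport and ribosomal proteins. Medians of these lists lay between -0.12 and 0.26. In the jasmonate list the synthesis gene aos1 stood at 0.48 (SE 0.23) and the ethylene receptor gene etr2 at 0.44 (SE 0.17), while aoc1 stood at -0.54 (SE 0.18) on one probe set. The phospholipase D gene PLD1 stood at 0.43 (SE 0.15) and the endoplasmic reticulum chaperone genes bip1 and bip2 at 0.60 (SE 0.25) and 0.50 (SE 0.23). These examples were chosen after their values were seen.

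The lower side of a horizontal pulvinus elongates fast and the upper side slowly, so the onset was also read on each side. On the upper side 142 probe sets were called (1.35%), 133 higher (1.26%) and 9 lower (0.0855%), and on the lower side 125 (1.19%), 106 higher (1.01%) and 19 lower (0.18%). For the 187 risers the median change was 1.33 on the upper side and 1.26 on the lower side, and 91 of them passed on both. For the 31 fallers it was -0.84 on the upper and -0.95 on the lower side, and 6 passed on both. Risers and fallers were chosen on the mean of both sides and both repetitions of these arrays, which favours a like change in each. No probe set differed between the sides in its change in limma's adjusted test (smallest adjusted p = 0.0899), and 703 of 10527 did so at an unadjusted p under 0.05, among them 5 of the 187 and 1 of the 31. Without the upper 5 min array of repetition 1, 14 passed that test. The smallest adjusted p for a difference between sides was 0.651 among the risers and 0.742 among the fallers.

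CDPK1 changed by 1.90 on the upper and 1.98 on the lower side, a difference between the sides of 0.08 (SE 0.28), and SAG by 2.05 and 1.99, a difference of -0.06 (SE 0.32). For UGlcAE on Zm.12322.1.A1_at the sides gave 1.91 and 1.55, and for Zm.1524.1.A1_at 3.69 and 4.54, with differences of -0.37 (SE 0.30) and 0.86 (SE 0.69) that did not pass. The count on the upper side depended on 2 arrays of repetition 2, being 22 without 15 min and 77 without 5 min, and that on the lower side was 34 to 73 without any 1 of its 4 arrays. Between the repetitions the median change of the risers was 1.14 in repetition 1 and 1.47 in repetition 2, with repetition 1 the larger in 45 of the 187. The fallers had medians of -0.90 in repetition 1 and -0.94 in repetition 2.

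**Figure D3:**
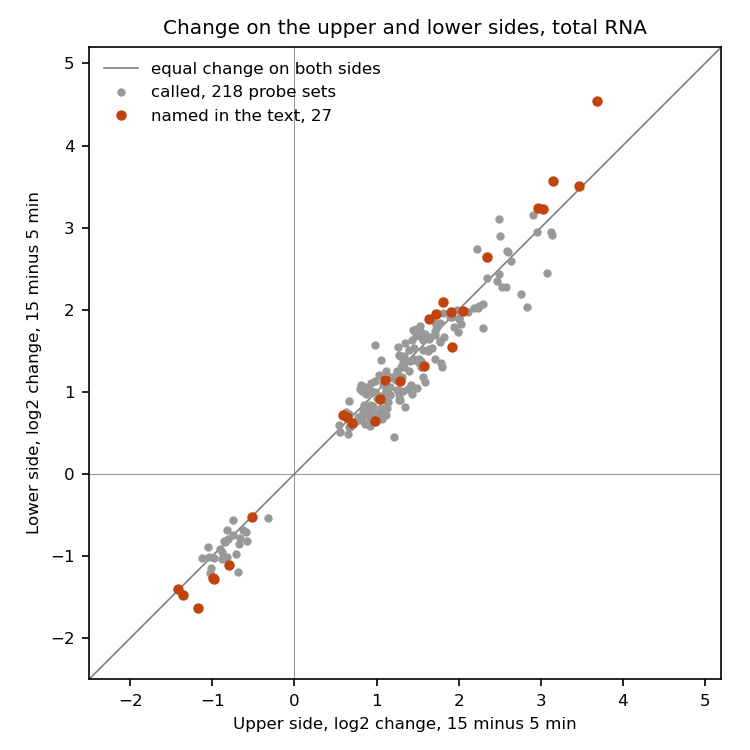
Log2 change, 15 minus 5 min in total RNA, on the upper side (horizontal axis) and the lower side (vertical axis) for the 218 called probe sets, with the 27 named probe sets coloured and the line of equal change. The points follow the line in both directions. The called probe sets were chosen on the mean of both axes.

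Arrays that the comparison did not use showed where these probe sets stood at other times. In the order vertical, 2, 5, 15, 30 and 60 min, the median log2 level of the risers was 8.35, 8.69, 8.55, 9.93, 9.50 and 8.93. That of the fallers was 9.61, 9.47, 9.82, 8.80, 9.16 and 9.40. Over all probe sets tested the median stayed between 9.01 and 9.03. Of the 4 conditions not in the comparison, 30 min was the highest for 153 of the 187 risers (81.8%), against 22.1% of all probe sets tested, and 60 min for 27, 2 min for 7 and vertical plants for none. For the fallers 30 min was the lowest in 23 of 31 (74.2%), against 28.2% of all.

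**Figure D4:**
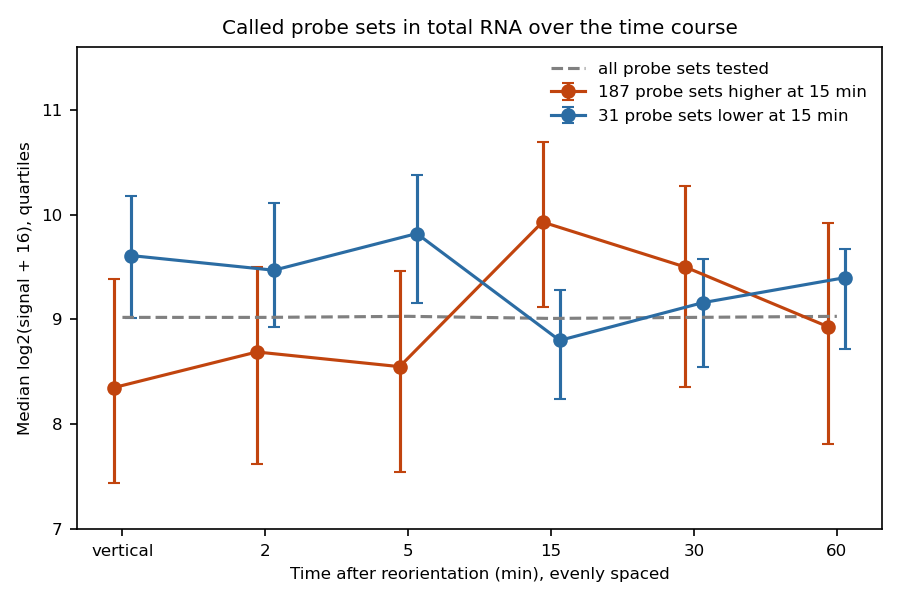
Median log2(signal + 16) in total RNA of the 187 probe sets called higher at 15 min, the 31 called lower and all 10527 tested, in vertical plants and at 2, 5, 15, 30 and 60 min, with bars from the lower to the upper quartile. The time axis is evenly spaced and not to scale. The risers stand at 8.55 at 5 min and 9.93 at 15 min and return part of the way by 60 min, at 8.93. The probe sets were chosen on 5 and 15 min.

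A comparison of later with earlier reoriented plants on other arrays, 30 against 2 min, called 48 probe sets (0.456%), 38 higher (0.361%) and 10 lower. Of the 187 risers, 28 were called higher there, which is 15.0% of the risers and 73.7% of the 38. The sign was the same for 178, with a median change of 0.72, against -0.02 for all probe sets tested. None of the 31 fallers was called, 28 had the same sign, and their median was -0.39. In this comparison UGlcAE rose by 1.30 (SE 0.25, adjusted p = 0.0265) on Zm.5311.1.A1_at and Zm.1524.1.A1_at by 3.65 (SE 0.67, adjusted p = 0.0222). Of the 27 named probe sets these 2 alone were called, and 26 had the same sign. SAG, at 1.35 (SE 0.31, adjusted p = 0.0613), MPK4, at 0.70 (SE 0.17, adjusted p = 0.0676), and CDPK1, at 1.01 (SE 0.27, adjusted p = 0.0922), did not pass. The dhn2 probe set Zm.4870.2.S1_a_at, at 0.16 (SE 0.35), and Zm.1527.2.A1_a_at, at 0.35 (SE 0.42), did not pass either, and Zm.16474.1.A1_at had the opposite sign at -0.46 (SE 0.48). The count was 12 without the lower 30 min array of repetition 1 and 190 without that of repetition 2. It was 26 without the upper 2 min array of either repetition, 24 without the upper 30 min array and 20 without the lower 2 min array of repetition 2.

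The steps on either side of the onset share arrays with it and are given for their counts alone. In limma's adjusted test no probe set was called for 5 against 2 min (422 at an unadjusted p under 0.05), 28 were called for 30 against 15 min (0.266%), 2 higher (0.019%) and 26 lower (0.247%), and none for 60 against 30 min (500 at an unadjusted p under 0.05).

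Polysomal RNA, the RNA that carries several ribosomes, was taken from the same powders and so from the same plants, but hybridised to other arrays. There 457 probe sets were called between 15 and 5 min (4.34%), 309 higher (2.94%) and 148 lower (1.41%). Among the 187 risers of total RNA, 161 were called higher in polysomal RNA (86.1% of the risers, 52.1% of the 309), all 187 had the same sign, and the median was 1.28. Among the 31 fallers, 28 were called lower, all 31 had the same sign and the median was -0.97. The polysomal array labelled upper side, 5 min, repetition 1 stood apart, with r = 0.903 to the other side of its pool, against 0.973 to 0.991 in the other 11 polysomal pools, and 0.981 to the 5 min arrays of repetition 2. Without it 282 probe sets were called (2.68%), 211 higher and 71 lower, and 141 of the risers and 25 of the fallers were among them. The count of polysomal calls also moved when other single arrays were left out, and was lowest without the lower 5 min array of repetition 2. It was highest without the upper 5 min array of repetition 2, which left the array that stood apart alone in its group.

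SAG had polysomal signals of 1164.8, 1356.4, 1573.8 and 1266 at 15 min, against 240.5, 331.2, 280.9 and 171.5 at 5 min, a change of 2.34 (SE 0.26, limma adjusted p = 7.02e-05). The groups did not overlap. CDPK1 changed by 1.48 (SE 0.21, adjusted p = 0.000616), dbf2 by 1.60 (SE 0.20, adjusted p = 0.000156), dhn2 by 1.69 to 2.12 and PPCK1 by -0.98 (SE 0.19, adjusted p = 0.00534). Of the 27 named probe sets 25 were called in polysomal RNA in the same direction, and CaM1, at 0.34 (SE 0.17, adjusted p = 0.304), and cesa8, at 0.54 (SE 0.15, adjusted p = 0.0517), were not. Without the array that stood apart cesa6 also missed, at 0.48 (adjusted p = 0.127), and 24 passed.

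Polysomal RNA also called members of the lists that total RNA did not, and those below are examples. With all arrays, 5 of 19 glutathione S-transferase probe sets, of 16 genes, fell and 4 of 30 cell wall probe sets rose. The 5 that fell were the 4 of gst31 and that of gst6. Among small GTPases and protein kinases, 3 of 16 rose and 2 fell. Stress-related transcription factors had 2 of 9 higher, the jasmonate list 1 of 12 higher and 1 lower, and phospholipid genes 1 of 5 higher. Over all probe sets tested, 2.94% rose and 1.41% fell. The 4 probe sets of gst31 fell by 1.41 to 1.82 on the log2 scale and gst6 by 1.44 (SE 0.33, limma adjusted p = 0.0186). For gst6 the polysomal signals were 488.6, 384.6, 489.6 and 474.5 at 15 min, against 526.4, 1975.9, 1498.1 and 1644.1 at 5 min. In repetition 1 the high 5 min value, 1975.9, was on the array that stood apart, and the other one, 526.4, was close to the 15 min values. Without that array gst6 changed by -1.05 (adjusted p = 0.0425) and gst31 by -1.10 to -1.35, still past the threshold. The expansin gene expA4 on Zm.13728.2.S1_at rose by 1.64 (SE 0.26, limma adjusted p = 0.0012) and by 1.49 without that array (adjusted p = 0.00723). Total RNA gave 1.56 for it, so the estimates were close while the SE differed.

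Whether ribosome loading itself shifted was tested on the log2 difference of polysomal and total signal of the same powder. No probe set was called between 15 and 5 min in limma's adjusted test (smallest adjusted p = 0.943), and 446 differed at an unadjusted p under 0.05. The median difference was -0.01 for the risers and -0.03 for the fallers, against 0.01 for all. CDPK1 stood at -0.46, SAG at 0.33 and Zm.6299.1.A1_at at -0.73, each with an adjusted p of 0.943. Without the powder of the array that stood apart none was called either. Calls did appear without the upper 5 min powder of repetition 2. That fit left the array that stood apart alone in its group, so it cannot show whether loading shifted.

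**Figure D5:**
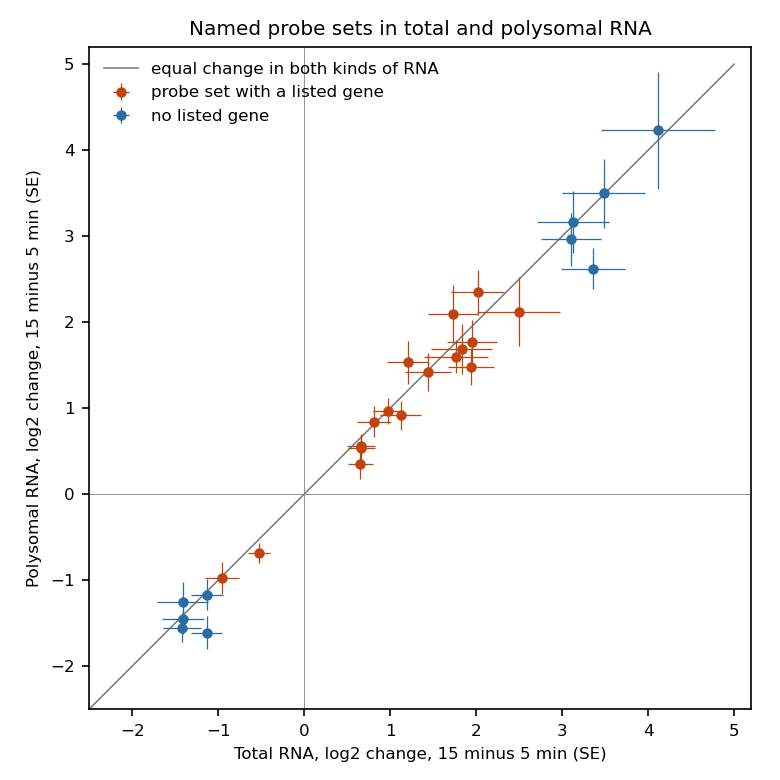
Log2 change, 15 minus 5 min, of the 27 named probe sets in total RNA (horizontal axis) and polysomal RNA (vertical axis), with the SE of the limma contrast as bars and the line of equal change. The 20 risers and 7 fallers keep their direction in both kinds of RNA, from 4.11 in total and 4.23 in polysomal RNA for Zm.1524.1.A1_at to -1.42 and -1.56 for Zm.15854.1.S1_at. By the labels both kinds of RNA came from the same plants. The polysomal values include the array that stood apart, labelled upper side, 5 min, repetition 1.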

How the data were processed

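The upper and lower sides of pulvini were measured in total and polysomal RNA on the Affymetrix GeneChip Maize Genome Array. The authors deposited signal intensity on a linear scale, made with GCOS per the submitters' processing notes; its version, scaling target and detection calls are not given in the sources used here. The 2% trimmed means of the 8 arrays were nearly equal, so intensities were used as deposited.

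Values were taken as log2(signal + 16). Probe sets whose mean over 48 arrays was above the 40th percentile were kept, 10527 of 17545. limma 3.58.1 (R 4.3.3, statmod 1.5.0), lmFit and eBayes with a trend, was fitted to the 24 total RNA arrays (12 groups of 2, 11 residual degrees of freedom), with repetition as fixed effect and plant pool as random block (duplicateCorrelation 0.575; 0.38 in polysomal RNA, 0.195 in powder differences). SE and adjusted p values are those of limma. The fit was tested on simulated data.

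Repetition numbers were taken as shared growing seasons, as the series design states. Departures from the group means correlated at 0.652 to 0.701 between the 5 min and 15 min groups.

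Named genes were up to 15 highest and 15 lowest called probe sets with 1 listed gene, called list members, the 5 highest and 5 lowest called without a gene, and 1 further UGlcAE probe set. Other genes are examples picked after their values were seen. Members and lists were chosen with earlier results of these data known. Lists matched symbols, synonyms and names, and members of another function were left out; the clock and pollen lists kept no member. Genes were named through the platform annotation and RefSeq of Zm-B73-REFERENCE-NAM-5.0, which was used for names only: 1452 probe sets had 1 gene and 1377 were found in RefSeq. No sequence was analysed here.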

Additional observations from a re-analysis of the deposited data

Results flagged for a closer look

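One array stood apart from the others of its time for 1 of the 27 named probe sets. For cesa6 (Zm.521.1.S1_at) the upper 5 min array of repetition 2 had a signal of 1432.5, a log2 value of 10.5 against 10.66 for the nearest other 5 min array. Its gap was 0.951 of the whole range of the 4 arrays, which is narrow. Of 54 groups of 4 arrays examined in this way 1 stood apart, and chance alone sets apart about 1 group in 20.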

How the results depend on the processing

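The 218 calls of 15 against 5 min became 225 with quantile normalization, 216 with log2(signal + 1), 224 with log2(signal + 64) and 277 without the brightness filter. They became 573 without the random block for the plant pool, 509 with the 8 arrays fitted alone, 111 on means of plant pools and 124 above the 60th percentile, where fewer probe sets are tested. Without single arrays they ranged from 112 to 220, the upper side from 22 to 151, the lower side from 34 to 73, the difference between sides from 0 to 14, 30 against 2 min from 12 to 190, polysomal RNA from 240 to 902 and polysomal over total from 0 to 569. With both sides of 1 plant pool left out, an alternative chosen after seeing the data, the 218 became 163 and 11 without the 15 min pools of repetitions 1 and 2, and 75 and 114 without the 5 min pools. A lone pool of a time is then taken to vary like the others. Among single arrays, the highest counts of polysomal RNA and of polysomal over total came without the upper 5 min array of repetition 2. That left the polysomal array that stood apart alone in its group.

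The repetition was the pairing term. With no replicate block 30 probe sets were called, 2 on the upper side, 15 on the lower side, none for 30 against 2 min (561 at an unadjusted p under 0.05 in limma) and 97 in polysomal RNA. The pool block changed 2 other counts: without it 30 against 2 min gave 960 and polysomal RNA 954, and quantile normalization gave 75 for 30 against 2 min. The causes were not tested beyond what these alternatives leave out. For the named probe sets, 429 of 562 recomputed values kept their direction and their call, 133 kept the direction and lost the call, and none was reversed. Without a replicate block SAG (adjusted p = 0.0379), CDPK1 (0.0328) and the 5 largest risers without a listed gene kept their calls. So did the dhn2 probe set Zm.4870.1.A1_x_at (limma adjusted p = 0.0328). All other named probe sets lost theirs, among them the dhn2 probe sets Zm.4870.2.S1_a_at (0.0751) and Zm.4870.1.A1_a_at (0.074). The number of arrays, 2 pools a time, limits all counts.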
